A study of Mus musculus with 3 samples.

Results

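The genes described here are the 36 that carry glucose into the cell, break it down to pyruvate and lactate, and pass lactate and pyruvate on. They were chosen by name, not by any measured value, from a list of glucose transporters, enzymes of each step of glycolysis, lactate dehydrogenases, lactate transporters, and pyruvate dehydrogenase with its kinases. All 36 were found among the 52636 gene identifiers of the count table. The study set T lymphomas that lack Cic, a transcriptional repressor gene, against normal thymus of control littermates. Only that control side was measured in the libraries analysed here: RNA-seq of 3 normal thymi from C57BL/6 mice of the genotype Cic flox/flox, all given tamoxifen (TAM in the labels). The labels name no Cre for this group, give no age and do not tie a library to an animal, so any p-value here reflects the spread among 3 samples that may differ in part for technical reasons. All 3 libraries belong to 1 condition, and no contrast between conditions was made; the lymphomas are not analysed here.

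Glycolysis splits glucose into pyruvate and yields ATP without oxygen. Most steps have isoenzymes from separate genes, with a form typical of most tissues and others typical of muscle, liver, brain or testis. Lactate dehydrogenase turns pyruvate into lactate, and proton-linked transporters move lactate across the membrane. Pyruvate dehydrogenase commits pyruvate to oxidation inside the mitochondrion unless its kinases switch it off. Dividing thymocytes are known for high use of glucose, and the hypoxia-inducible factors and Myc are known activators of many of these genes.

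The libraries, named thymus 1, 2 and 3 after the labels, held 44932368, 41345114 and 38265510 reads, of which 30414788, 28587087 and 25408442 were assigned to genes. CPM are counts per 1000000 reads assigned to genes after scaling by TMM, edgeR's method for a common library size, and serve to compare libraries. TPM are counts per kilobase of merged exon, scaled to a sum of 1000000, and serve to compare genes. A count of 3, the least taken as detection, lay between 0.0986 and 0.122 CPM. The tissue label was borne out by its markers: 8 of 8 thymocyte genes exceeded 10 CPM in every library, Rag1 of V(D)J recombination at 4192, 3881 and 4152 CPM. Thymus 1 stood apart in blood genes, with a summed level of 1026 CPM over 9 erythroid genes against 48.1 and 225 CPM in thymus 2 and 3. In bulk tissue, fewer cells of a type and less RNA per cell cannot be told apart.

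The 36 genes spanned a wide range, from the lactate dehydrogenase gene Ldhb at 539 ± 26.2 TPM (SD, n = 3) to the liver glucose transporter gene Slc2a2, which had 1, 1 and 2 counts. The median over the 36 was 22.2 TPM. In every thymus 23 of the genes exceeded 10 CPM and 9 exceeded 100 TPM, while Slc2a2, Pgam2 and Pklr stayed below 1 CPM. Summed over the genes, the level was 2749, 2821 and 2810 CPM in thymus 1, 2 and 3. Ordered by mean TPM, the 36 genes form 35 pairs of neighbours, and in 22 of these the ranges over the 3 thymi overlapped. At the top of that order, Ldhb, Ldha and Pdha1 each lay above the gene next below with no overlap, while the range of Pkm overlapped that of Aldoa. The order also depends on the length by which counts are divided. With the principal transcript of the APPRIS annotation in place of merged exons, a choice made after the data were seen, Ldha came first at 493 ± 7.56 TPM and Ldhb next at 433 ± 20.4 TPM.

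**Figure D1:**
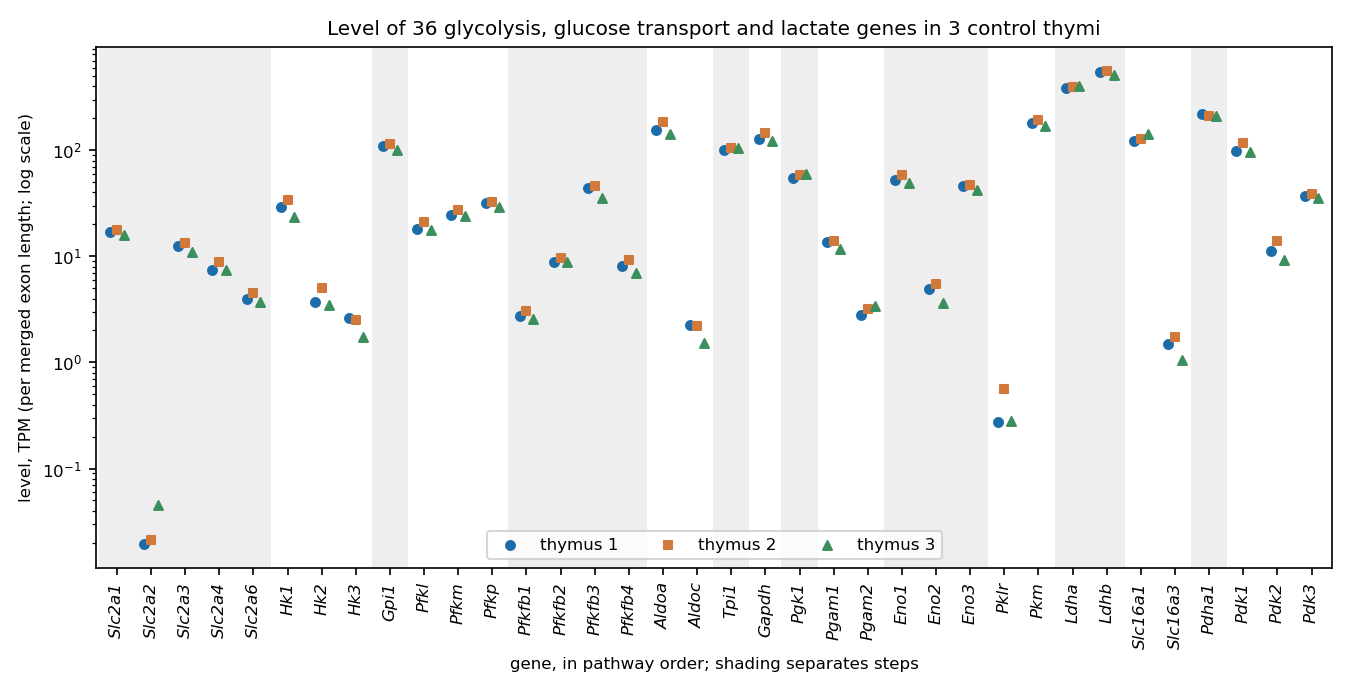
Level of each of the 36 genes in each of the 3 thymi, in TPM on a log axis, with genes in pathway order and shading that separates the steps. Symbols are single libraries; Ldhb and Ldha stand highest, at means of 539 and 394 TPM, and the points of 1 gene mostly lie closer together than the genes do.

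Glucose enters cells through the GLUT transporters encoded by the Slc2a genes. Slc2a1, which encodes GLUT1, the transporter of most dividing cells, was read at 17.5, 17.5 and 17.4 CPM, nearly the same value in all 3 thymi. Slc2a3, for the high-affinity GLUT3, had 26.6, 27.1 and 25.0 CPM. Slc2a4, for the insulin-responsive GLUT4 of muscle and fat, had 7.56, 8.73 and 8.11 CPM. Slc2a6, for GLUT6, had 3.75, 4.13 and 3.73 CPM. Per kilobase the means were 16.9 TPM for Slc2a1, 12.3 for Slc2a3, 7.93 for Slc2a4 and 4.09 for Slc2a6, with ranges over the thymi that did not overlap. None of the 5 transporter genes varied beyond counting noise where tested, and Slc2a2 had too few reads for a test.

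Which of the widely used transporters led depended on the length taken. Per kilobase of merged exon, Slc2a1 made up 41.0 ± 0.988% of the summed transporter level and Slc2a3 29.8 ± 0.797% (SD, n = 3). With the APPRIS principal transcripts the shares were 31.5 ± 0.841% and 38.9 ± 0.942%, the opposite order, because the merged exons of Slc2a3 span 7245 bases and its principal transcript 3959. Slc2a4 kept a share near 19.2%, with 18.9% under the principal lengths. Fat markers were present beside it: 4 of 8 exceeded 10 CPM in every thymus, and the 8 summed to 142, 213 and 175 CPM. All 8 varied beyond counting noise, beside 43.4% of all genes tested. The part of fat in the Slc2a4 level was not tested.

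Hexokinases phosphorylate glucose and so trap it in the cell. Hk1 (ENSMUSG00000037012, chr10:62268855-62379908, minus strand), the form of most tissues, had 73.1, 82.2 and 62.6 CPM. Hk2, the inducible form of muscle and of many tumours, had 6.51, 8.52 and 6.45 CPM. Hk3, a form known from myeloid cells, had 2.83, 2.59 and 1.99 CPM. Thymus 2 was highest for Hk1 and Hk2, thymus 1 for Hk3. Hk1 made up 82.0 ± 0.166% of the summed hexokinase level per kilobase, and 90.1 ± 0.0767% with principal transcripts, so its lead did not depend on the length. Of the macrophage and dendritic cell markers, 10 of 10 exceeded 10 CPM in every thymus and were lowest in thymus 3, and 8 of the 10 were highest in thymus 1. Of all genes tested, 39.7% were lowest in thymus 3 and 24.1% highest in thymus 1. Hk3 was lowest in thymus 3 too but did not vary beyond counting noise. The markers are described further by level. The 10 markers summed to 1234, 1016 and 928 CPM, with Lyz2 alone at 685, 514 and 469 CPM. The 8 neutrophil markers summed to 21.7, 18.4 and 45.2 CPM. The part of these cells in the Hk3 level was not tested.

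Gpi1, the isomerase that makes fructose-6-phosphate, had 208, 210 and 202 CPM, or 109 ± 7.51 TPM. Phosphofructokinase then commits the sugar to glycolysis, as tetramers of subunits from 3 genes. Pfkp, the platelet-type subunit, had 126, 122 and 122 CPM. Pfkl, the liver-type subunit, had 35.3, 39.8 and 36.7 CPM, and Pfkm, the muscle-type subunit, 24.2, 25.7 and 25.2 CPM. All 3 subunit genes were thus expressed in every thymus, each within a narrow range. Per kilobase of merged exon the shares were 41.4 ± 1.44% for Pfkp, 33.6 ± 0.544% for Pfkm and 25.0 ± 1.05% for Pfkl. With principal transcripts Pfkp was at 61.5 ± 1.47% and Pfkm came last at 17.9 ± 0.465%. From merged exons to principal transcript the length went from 13401 to 4145 bases for Pfkp, from 6675 to 3730 for Pfkl and from 3340 to 2879 for Pfkm. The lead of Pfkp held under both lengths, and the order of the other subunits did not.

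The Pfkfb genes encode bifunctional enzymes that make and remove fructose-2,6-bisphosphate, the strongest activator of phosphofructokinase. Pfkfb3, the form with the highest kinase activity and itself inducible by hypoxia, had 98.0, 98.4 and 83.1 CPM. It made up 67.6 ± 1.58% of the family per kilobase and 67.5 ± 1.65% with principal transcripts. Pfkfb2, the heart form, followed with 19.0, 19.7 and 19.8 CPM, Pfkfb4, the testis form, with 11.7, 12.7 and 10.5 CPM, and Pfkfb1, the liver and muscle form, with 3.25, 3.44 and 3.21 CPM. Thymus 3 was low for Pfkfb3. At 41.9 ± 5.79 TPM, Pfkfb3 did not overlap with the other forms in any thymus.

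The middle steps were dominated by 1 gene each. Aldoa, the aldolase of muscle and most other tissues, had 133, 150 and 130 CPM and made up 98.8 ± 0.186% of the aldolase level, Aldoc, the brain form, having 2.14, 2.01 and 1.54 CPM. A second identifier that also carries the name Aldoa held 2, 1 and 5 reads and was left out. Tpi1, triosephosphate isomerase, had 81.1, 81.9 and 89.5 CPM. Gapdh, the dehydrogenase often used as a reference gene, had 155.5, 171 and 155.8 CPM, with thymus 2 apart from the others. Pgk1, the kinase of the first ATP-yielding step, had 35.8, 37.0 and 41.7 CPM, with thymus 3 highest. Pgam1, the mutase of most tissues, had 7.89, 7.84 and 7.26 CPM, or 13.1 ± 1.19 TPM.

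Pgk1, Pgam1, Eno1, Pkm and Gapdh may be counted low where their sequence recurs, because only uniquely mapped reads enter the counts. The loss per gene was not measured, and the read length is not given in the sources used here. Of the 50-base stretches of the exons of each gene, 53.9% in Pgk1, 36.2% in Pgam1, 26.0% in Eno1, 25.8% in Pkm and 25.1% in Gapdh were also found in annotated transcripts of other genes, processed pseudogenes among them. For Pkm the pseudogene Gm6560 shared 617 stretches and Gm49759 shared 623. Gm49759 overlaps Pkm on the same strand, so its part of the 25.8% is not recurrence elsewhere. One recurring stretch of coding sequence from each of Gapdh, Pgam1 and Eno1 shows what a read of that length could not place. The stretches are given 5′ to 3′ in the direction of the gene and were taken from GENCODE M21 transcripts on GRCm38.p6.
Gapdh: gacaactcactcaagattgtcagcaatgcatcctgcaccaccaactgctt
Pgam1: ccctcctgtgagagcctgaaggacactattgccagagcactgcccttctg
Eno1: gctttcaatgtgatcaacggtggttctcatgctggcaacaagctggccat
The Gapdh stretch lies at chr6:125162898-125162947 on the minus strand and recurred in 84 other genes, 80 of them pseudogenes. The Pgam1 stretch, at chr19:41916679-41916728 on the plus strand, recurred in 3 pseudogenes, and the Eno1 stretch, at chr4:150245115-150245164 on the plus strand, in 5 other genes. The pseudogene partners of Pgk1 in the count table held 0 reads in each thymus, and those of Pgam1 5, 5 and 1. Reads from the shared stretches of these copies may likewise not have been counted. The 209 pseudogene partners of Gapdh held 1804, 1975 and 1775 reads, equal to 38.1%, 39.3% and 46.2% of the reads given to Gapdh itself. Of these partners Gm9522, which shared 23 stretches with Gapdh, held 563, 631 and 839 reads. Gm7336, which shared the most at 1131, held 0, 1 and 0. Whether the reads of the partners came from Gapdh or from the pseudogenes was not tested.

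Pgam2, the muscle mutase, is a special case. Only 21, 22 and 22 reads lay on its own strand, while 153, 151 and 101 lay on the opposite strand, 85.8 ± 3.19% of its stranded reads. The opposite strand holds Dbnl, an actin-binding protein gene at 104 ± 8.74 CPM, which ends 678 bases from Pgam2 and is transcribed toward it. Counted without strand, Pgam2 would lead the mutases and Pgam1 would hold 37.1% of their level; counted by strand, Pgam1 held 80.7 ± 2.80%.

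Enolase makes phosphoenolpyruvate. Eno1, the form of most tissues, had 82.1, 89.1 and 83.1 CPM, Eno3, the muscle form, 23.7, 23.3 and 22.8 CPM, and Eno2, the neuronal form, 6.77, 7.30 and 5.36 CPM. Per kilobase of merged exon Eno1 made up 51.6 ± 1.14% and Eno3 43.9 ± 1.22%, close to even. With principal transcripts, and so without the 5379 merged exon bases of Eno1, the shares were 70.9 ± 0.948% and 25.2 ± 0.918%. Eno3 was thus a sizeable share of thymic enolase RNA under both lengths. Muscle markers were mostly low: 7 of 10 were below 1 CPM in every thymus, Myh2, Myh6 and Myl2 had at most 3 reads in any library, and the list summed to 44.6, 42.4 and 43.7 CPM. Most of that sum came from Mylpf, a fast myosin light chain gene, at 29.2, 29.0 and 31.8 CPM. Of the 7 neural markers set beside Eno2, Snap25 and Rbfox3 had at most 3 reads in any library, 4 were below 1 CPM in every thymus, and the list summed to 14.1, 15.96 and 15.1 CPM. The highest in CPM was Syt1, a synaptic vesicle gene, at 6.54, 7.60 and 5.31 CPM. It varied beyond counting noise and had the same order over the thymi as Eno2. Gfap, which varied beyond counting noise too, and Tubb3 did not have that order. Gfap had 2.37, 2.01 and 3.21 CPM and Tubb3 3.88, 4.88 and 5.11 CPM, both highest in thymus 3. The part of muscle or nerve in the Eno3 and Eno2 levels was not tested.

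Pyruvate kinase closes glycolysis. Pkm, the gene of the M1 and M2 forms, which gene counts do not separate, had 267, 270 and 265 CPM and made up 99.8 ± 0.0773% of the pyruvate kinase level. Pklr, the liver and red cell gene, had 8, 15 and 7 reads. An unspliced transcript model, Gm49759, overlaps 15.3% of the exon bases of Pkm on the same strand and held 1139, 991 and 999 reads, and how many reads of Pkm were given to that model or left ambiguous was not tested.

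Lactate dehydrogenase is a tetramer of A and B chains, of which the A chain, from Ldha, favours lactate formation and the B chain, from Ldhb, the reverse reaction. Ldha (ENSMUSG00000063229, chr7:46841475-46855627, plus strand) had 378, 366 and 413 CPM, with thymus 3 above the others. Ldhb (ENSMUSG00000030246, chr6:142490249-142507957, minus strand) had 250.03, 249.4 and 249.8 CPM, close agreement between libraries, with a coefficient of variation of 0.134%. Per kilobase of merged exon Ldhb led with 57.7 ± 1.51%, while with principal transcripts Ldha led with 53.2 ± 1.54%. Of the 50-base stretches, 20.99% in Ldhb and 9.26% in Ldha recur elsewhere, and over bases unique to each gene Ldhb held 60.8%. Both chains were therefore abundant, each with at least 39.2% of the pair under any of the transcript lengths tried, but the data do not fix which led.

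Lactate crosses the membrane with a proton through monocarboxylate transporters. Slc16a1 (ENSMUSG00000032902, chr3:104638668-104658462, plus strand), for MCT1, had 160, 158 and 195 CPM, with thymus 3 well above the other libraries. Slc16a3, for MCT4, the exporter of strongly glycolytic cells, had 2.33, 2.59 and 1.74 CPM, so Slc16a1 made up 98.9 ± 0.319% of the pair. Of the stranded reads at Slc16a3, 35.3 ± 5.98% lay on the opposite strand, toward which Csnk1d, a kinase gene at 204 ± 8.23 CPM, is transcribed from 881 bases away.

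Pdha1, for a catalytic subunit of pyruvate dehydrogenase, had 238, 223 and 247 CPM, or 214 ± 3.22 TPM. Its inhibitory kinases were led by Pdk1 (ENSMUSG00000006494, chr2:71873224-71903858, plus strand), a known target of hypoxia-inducible factor, at 223, 257 and 235 CPM, highest in thymus 2. Pdk3 had 28.0, 28.1 and 28.1 CPM, nearly the same in all 3 thymi with a coefficient of variation of 0.136%, and Pdk2 10.4, 12.3 and 9.09 CPM. Pdk1 made up 68.1 ± 1.13% of the kinase level per kilobase and 71.8 ± 1.04% with principal transcripts.

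**Figure D2:**
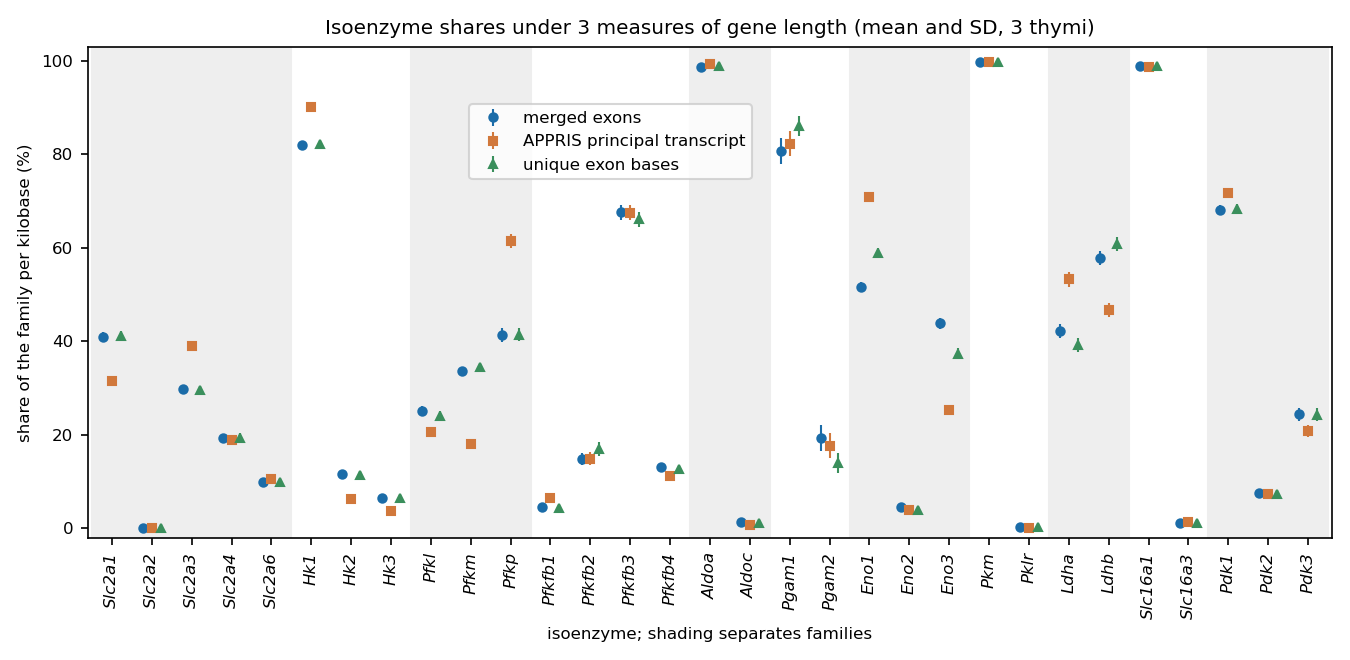
Share of each isoenzyme in the summed level of its family, in percent, with counts divided by merged exon length, APPRIS principal transcript length or exon bases unique to the gene. Points are means and bars SDs over 3 thymi; Hk1, Pfkfb3, Aldoa, Pkm, Slc16a1 and Pdk1 led under all 3 lengths, while Slc2a1 with Slc2a3 and Ldha with Ldhb changed places under the principal transcript.

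The spread between the thymi was then tested on all 16548 genes with enough reads, which included 34 of the 36; Slc2a2 and Pklr had too few. By edgeR's quasi-likelihood test against the trend of dispersion with abundance, with Benjamini-Hochberg adjustment, 0 of the 34 were more variable than genes of like abundance, where 0.0604% of all genes were called (10 of 16548). Unadjusted, too, 0 had a p under 0.05, the smallest p being 0.0761, for Hk1. Goodness of fit with a negative binomial model and DESeq2's dispersion outliers called 0 of the 34 as well. The widest ratio between libraries among the 34 was 1.49, for Slc16a3, and that of Hk1 was 1.31. In simulated data the quasi-likelihood test called 0 of 67 genes raised 2-fold in a single library, a wider change than any of these ratios. With 3 libraries, the count of 0 therefore does not show that these genes were stable. The median coefficient of variation was 5.93% over the 34 genes and 9.06% over all genes tested.

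A second test asked only whether counts differed between libraries by more than counting noise. By the goodness-of-fit test of edgeR with the dispersion set to 0, and Benjamini-Hochberg adjustment, 15 of the 34 did (44.1%), beside 43.4% of all genes tested, a share near that background. They were Hk1, Hk2, Pfkl, Pfkfb3, Aldoa, Tpi1, Gapdh, Pgk1, Eno1, Eno2, Ldha, Slc16a1, Pdha1, Pdk1 and Pdk2. The smallest adjusted p were 1.2e-28 for Slc16a1, 5.3e-17 for Ldha, 2.0e-15 for Pdk1 and 6.1e-15 for Hk1. The other 19 tested genes did not pass, Slc2a1 and Pdk3 among them; nor did Ldhb and Pkm, which passed under library totals. Leaving out thymus 2 left 7 genes past the threshold: Hk1, Pfkfb3, Tpi1, Pgk1, Ldha, Slc16a1 and Pdk1 (20.6%, beside 26.2% of all genes tested). Leaving out thymus 3 left 8: Hk1, Hk2, Pfkl, Aldoa, Gapdh, Eno1, Pdha1 and Pdk1 (23.5%, beside 22.3%). Leaving out thymus 1 left 13 (38.2%, beside 39.7%). Hk1 and Pdk1 were thus past the threshold whichever library was left out, while Ldha and Slc16a1 were not past it without thymus 3. The share called depends on the level. With all 3 libraries and a mean of at least 5 CPM required, 15 of 28 (53.6%) passed, beside 59.6% of 11358 genes.

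The 15 genes were sorted into a pair of patterns by the library where each was highest. The noise test did not test that place. Thymus 2 was highest for 10 of them: Hk1, Hk2, Pfkl, Pfkfb3, Aldoa, Gapdh, Eno1, Eno2, Pdk1 and Pdk2. Thymus 3 was highest for the other 5: Tpi1, Pgk1, Ldha, Slc16a1 and Pdha1. Thymus 1 was highest for 0. Some places were close: Pfkfb3 had 98.4 CPM in thymus 2 and 98.0 in thymus 1, with 83.1 in thymus 3. Of all genes tested, 24.1%, 38.0% and 37.9% were highest in thymus 1, 2 and 3. On the log2 CPM scale, thymus 3 minus thymus 2 was 0.31 for Slc16a1, 0.17 for Ldha, 0.17 for Pgk1, 0.14 for Pdha1 and 0.13 for Tpi1. The opposite sign was seen for Hk1 at -0.39, Hk2 at -0.40, Eno2 at -0.44 and Pdk2 at -0.44. These single differences have no test between 2 libraries of 1 condition.

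**Figure D3:**
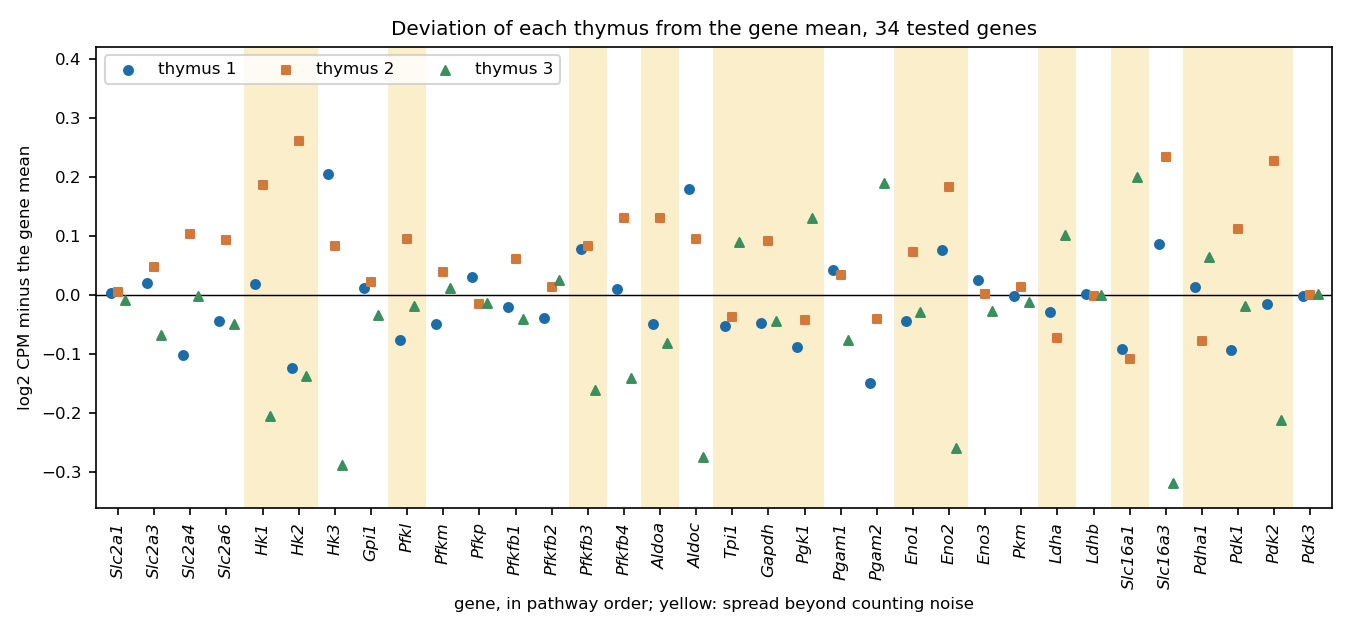
Deviation of log2 CPM from the gene's mean over the 3 thymi, for the 34 tested genes in pathway order. Yellow bands mark the 15 genes that varied beyond counting noise; thymus 2 is highest in 10 of them and thymus 3 in 5, Slc16a1 standing 0.31 above thymus 2 in thymus 3.

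The patterns depend in part on the scale. Under library totals in place of TMM, Tpi1 and Pdha1 no longer varied beyond counting noise, while Gpi1, Pfkfb4, Pkm and Ldhb did, 17 genes in all. With the 15 genes held fixed, library totals again gave 10 highest in thymus 2 and 5 in thymus 3. On the TPM scale, where the median of all genes tested was -0.15 in log2 for thymus 3 minus thymus 2, only Slc16a1 (0.17), Ldha (0.03) and Pgk1 (0.03) of the 5 stayed highest in thymus 3; relative to that median all 5 were higher. For Tpi1 the sign against thymus 2 turned, to -0.01, and for Pdha1 the TPM value was highest in thymus 1. Over the 34 genes the median of thymus 3 minus thymus 2 was -0.10 in log2 CPM, with 10 genes above 0 and 24 below, beside -0.01 over all genes. For thymus 2 minus thymus 1 the medians were 0.05 and 0.00, and for thymus 3 minus thymus 1 -0.01 and 0.00.

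Base composition moved with these differences. The GC content of the longest transcript ranged from 42.9% in Slc16a1 to 58.2% in Slc2a6, and across the 34 genes its Spearman correlation with thymus 3 minus thymus 2 was -0.387, beside -0.365 across all genes tested; genes of 1 library pair share both libraries and are not independent. With the trend of each library against GC content removed, the median over the 34 was -0.01 in place of -0.10. Of the 15 genes beyond counting noise, 7 were then highest in thymus 2, 7 in thymus 3 and 1 in thymus 1, in place of 10, 5 and 0. For single genes the size changed but not the sign among the 5 highest in thymus 3: Slc16a1 went from 0.31 to 0.18, Ldha from 0.17 to 0.24 and Tpi1 from 0.13 to 0.22. Hk1 went from -0.39 to -0.27 and Aldoa from -0.21 to -0.09, while Pfkl and Eno1 turned slightly positive, to 0.01 and 0.02.

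**Figure D4:**
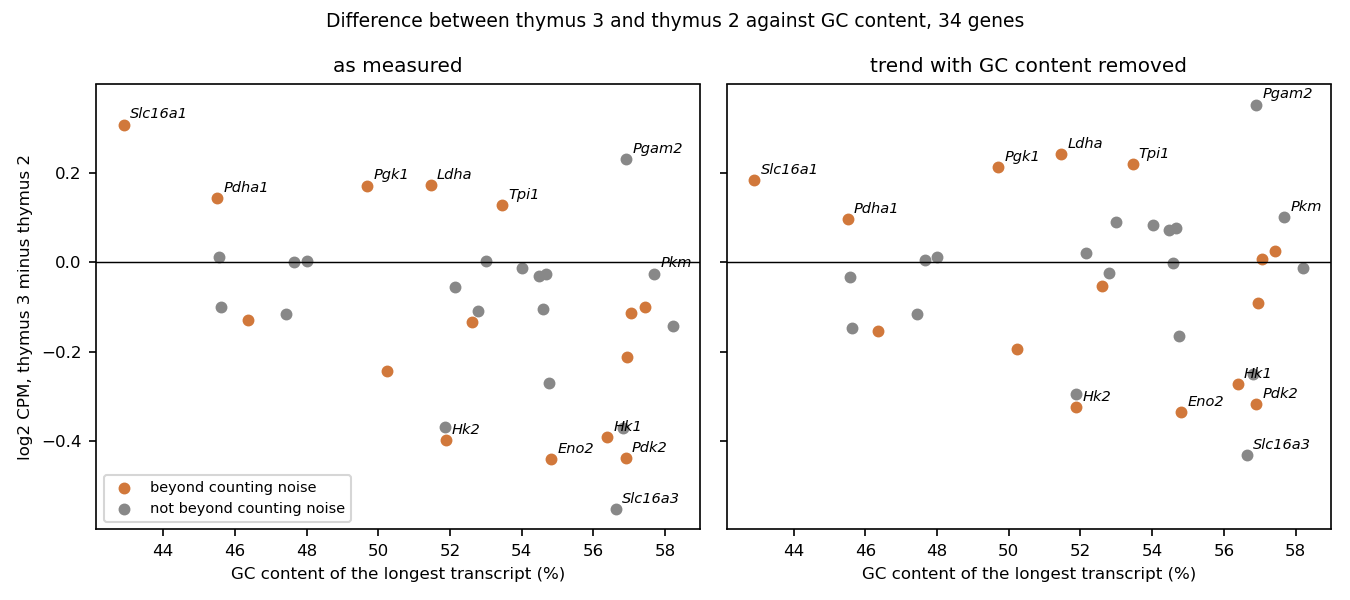
Thymus 3 minus thymus 2 in log2 CPM for the 34 tested genes against the GC content of the longest transcript, as measured on the left and with the trend against GC content removed on the right. Orange points varied beyond counting noise; Slc16a1, Pgk1, Ldha, Tpi1 and Pdha1 lie above 0 in both panels, Hk1, Hk2, Eno2 and Pdk2 below it.

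The promoters of 3 genes that were highest in thymus 3 are shown, since Slc16a1, Ldha and Pgk1 kept that place on every scale and are known targets of the hypoxia-inducible factors or Myc. The windows run from 250 bases before to 50 after the start site, 5′ to 3′, from RefSeq on GRCm38.p6, where 34 of the 36 genes had an entry. Capitals mark CACGTG, the E-box of Myc and related factors, and ACGTG and GCGTG, the cores of the hypoxia response element, searched on both strands; ACGTG is contained in CACGTG, and the other strand reads CACGT or CACGC.
Slc16a1: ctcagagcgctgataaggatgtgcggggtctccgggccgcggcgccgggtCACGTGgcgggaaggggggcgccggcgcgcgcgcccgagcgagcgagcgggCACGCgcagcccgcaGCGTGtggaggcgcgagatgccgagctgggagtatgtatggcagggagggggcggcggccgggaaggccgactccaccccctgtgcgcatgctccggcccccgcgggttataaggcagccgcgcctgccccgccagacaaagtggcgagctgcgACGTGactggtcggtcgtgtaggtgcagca
Ldha: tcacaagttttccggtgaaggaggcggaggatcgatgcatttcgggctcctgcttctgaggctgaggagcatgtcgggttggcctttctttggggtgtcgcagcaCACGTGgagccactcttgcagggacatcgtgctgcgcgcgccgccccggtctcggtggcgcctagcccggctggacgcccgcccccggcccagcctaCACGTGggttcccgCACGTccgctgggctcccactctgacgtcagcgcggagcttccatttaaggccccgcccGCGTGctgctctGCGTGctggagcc
Ldha second start: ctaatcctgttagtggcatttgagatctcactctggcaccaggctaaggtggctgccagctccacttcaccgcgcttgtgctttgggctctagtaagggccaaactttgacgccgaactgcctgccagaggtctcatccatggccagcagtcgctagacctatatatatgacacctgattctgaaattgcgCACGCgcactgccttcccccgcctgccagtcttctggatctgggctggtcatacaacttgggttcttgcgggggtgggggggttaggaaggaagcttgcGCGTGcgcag
Pgk1: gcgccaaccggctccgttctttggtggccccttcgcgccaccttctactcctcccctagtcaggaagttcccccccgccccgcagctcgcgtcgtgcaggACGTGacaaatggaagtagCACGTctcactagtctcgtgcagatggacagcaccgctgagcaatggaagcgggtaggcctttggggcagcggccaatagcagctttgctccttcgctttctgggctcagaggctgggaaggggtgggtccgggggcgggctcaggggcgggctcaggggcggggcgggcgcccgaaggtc
The Slc16a1 window lies at chr3:104638414-104638713 and holds CACGTG at -200 and a further ACGTG at 20 from the start. The Ldha windows lie at chr7:46845554-46845853, with CACGTG at -145 and -48, and at chr7:46846832-46847131, which has GCGTG only. The Pgk1 window, at chrX:106186850-106187149, holds ACGTG at -150 and -131; all 4 windows are on the plus strand. Genes of both patterns had such matches or lacked them: Tpi1 and Pdha1 had no ACGTG, and Hk1, Aldoa and Gapdh, highest in thymus 2, had it.

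Over the 34 genes with a window, CACGTG was found in 6 (17.6%): Pfkm, Pfkfb2, Pfkfb3, Ldha, Slc16a1 and Pdk2. Counting each gene of the table once, 11.1% of the tested genes with a window held it. By windows, it was in 6 of 54 for these genes (11.1%) and in 7.15% of all 32851 windows. ACGTG was found in 18 of the 34 genes (52.9%) and in 28.0% of tested genes, or in 40.7% of their windows and 19.6% of all windows. GCGTG was found in 21 of the 34 (61.8%) and in 53.1% of tested genes, or in 50% of the windows of the 34 and 32.4% of all windows. These are descriptions of letters in a window, not of binding.

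Other genes, in 9 lists with 133 genes, were measured beside the 36. The lists cover the pathway and its branches, its regulators, hypoxia-inducible genes outside glycolysis, and the cell cycle. Of 118 with enough reads, 0 were more variable than the trend by edgeR's quasi-likelihood test, beside 0.0604% of all genes tested. Of the 118, 62 (52.5%) varied beyond counting noise, beside 43.4% of all genes tested and 59.6% of those with a mean of at least 5 CPM. By list the share ran from 16.7% for gluconeogenesis to 86.7% for cell cycle genes. Among 18 other lactate and pyruvate genes, 7 of 15 tested varied beyond noise, beside 43.4% of all genes tested. In CPM with the GC trend not removed, 10 of 15 were highest in thymus 3, beside 37.9% of all genes tested. The 10 include Bsg, which encodes the chaperone of MCT1, at 182, 179 and 197 CPM, and the pyruvate dehydrogenase genes Pdhb, at 124, 114 and 145 CPM, and Dld, at 144, 122 and 167 CPM. Slc16a8, for a transporter of the retinal epithelium, had 0 reads in every library.

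The 12 other hexose transporter and entry genes were mostly low, 7 being below 1 CPM in every thymus and Slc5a2 and Hkdc1 having at most 3 reads in any. The highest was Adpgk, an ADP-dependent glucokinase, at 57.0, 57.3 and 52.2 CPM. Of 11 other isoenzymes and side steps, 3 of 8 tested varied beyond noise, namely Bpgm, Minpp1 and Gpd1 (37.5%, beside 43.4% of all genes tested). The testis gene Pgk2 had 0 reads. Gluconeogenesis genes were low, with 1 of 6 tested varying beyond noise (Pcx, 16.7%) and G6pc3 the highest at 15.6 ± 2.42 TPM.

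Branches that draw on glycolytic sugars were measured too. In the pentose phosphate pathway 6 of 11 genes (54.5%) varied beyond noise, beside 43.4% of all genes tested and 59.6% of those with a mean of at least 5 CPM. Prps2, which makes the ribose donor of nucleotide synthesis, had 318, 292 and 327 CPM. Of the glycogen and hexosamine genes 5 of 15 (33.3%) varied beyond noise, with Ugp2 the highest at 68.6 ± 1.57 TPM.

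Regulators of the pathway were present in all thymi. Txnip, which restrains glucose uptake, was the highest of 24 at 625, 627 and 575 CPM. Of the 24, 14 (58.3%) varied beyond noise, beside 43.4% of all genes tested and 59.6% of those with a mean of at least 5 CPM. Hif1a, the oxygen-regulated subunit of hypoxia-inducible factor 1, had 187, 174 and 194 CPM, highest in thymus 3, and Myc 52.1, 60.4 and 48.8 CPM, highest in thymus 2. Of 19 hypoxia-inducible genes outside glycolysis, 11 (57.9%) varied beyond noise, beside the same 43.4% and 59.6%. Of the 11, 5 were highest in thymus 2, 5 in thymus 3 and 1 in thymus 1. Ddit4, an inhibitor of mTOR signalling, had 126, 159 and 155 CPM, and Bnip3l, a mitophagy receptor, 202, 179 and 216 CPM. The list as a whole thus had no single high library.

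Cell cycle genes were mostly highest in thymus 3 as well. Of 15, 13 varied beyond noise and 12 were highest in thymus 3, beside 43.4% and 37.9% of all genes tested, while Mcm3, Mcm7 and Ccnb2 were highest in thymus 2. The list had a median of 0.26 in log2 CPM for thymus 3 minus thymus 2, with the GC trend not removed. Mki67, a marker of cycling cells, had 883, 855 and 1052 CPM, and Pcna, the replication clamp, 398, 335 and 504 CPM. Whether the share of cycling cells had a part in the Ldha, Slc16a1, Pgk1, Tpi1 and Pdha1 levels was not tested.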

How the data were processed

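Polyadenylated RNA of 3 control thymi, prepared with the AllPrep kit and the TruSeq Stranded mRNA kit per the labels, was sequenced. The authors deposited raw read counts for each gene and strand, in the layout of STAR's gene counting, which takes uniquely mapped reads. Per the submitters' processing notes, STAR 2.5.3a, DESeq2 without a version and GRCm38 were used; which annotation release was counted is not given in the sources used here. Reverse-strand counts were used, as the kit places a transcript's reads there. The 4 summary lines, between 30.9% and 33.6% of reads, stayed out of library sizes and tests. Identifiers were matched without version to GENCODE M21 (52489 of 52636). Where a name had several, the one with the longest merged exons was used.

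The tools were edgeR 4.0.16, DESeq2 1.42.0 and limma 3.58.1 in R 4.3.3, and Python 3.11.15. A filter (minimum count 10, total 15) left 16548 genes, and TMM factors were 1.00, 1.03 and 0.971. An intercept-only robust quasi-likelihood fit with 5.24 prior degrees of freedom tested variability against the trend, one-sided, and goodness of fit at a dispersion of 0 tested counting noise, both with Benjamini-Hochberg adjustment at 0.05. The first was tested on simulated data in which chosen genes were raised in a single library each. It recovered 0 of 67 raised 2-fold, 37 of 67 raised 4-fold and 66 of 66 raised 16-fold, with 7 false calls. The GC trend was removed per library by lowess with span 0.3. Log2 values carry a prior count of 2. Alternatives were DESeq2 size factors, library totals, the unstranded column, other filters, other tests, other lengths and each library left out; APPRIS principal transcripts and the TPM scale for differences between thymi were added after the data were seen. Every member is named; of other lists, genes called by either test, the 3 highest and those with at most 3 reads could be named, beside partners that share sequence or strand with a member. The members and lists were chosen with earlier results of these data known. Counts carry no molecular identifiers, so the limit of 3 counts covers counting error only.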

Additional observations from a re-analysis of the deposited data

Results flagged for a closer look

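Of the 36 genes, 4 had over 10% of their stranded reads on the opposite strand, more than 3 such reads in every library, a signal outside the column used for the levels. The mean over 3 thymi was 85.8% for Pgam2, 35.3% for Slc16a3, 12.6% for Pfkfb2 and 10.4% for Slc2a6. For Slc2a6 the nearest opposite-strand gene is Cacfd1, which ends 274 bases away and had 52.7 ± 3.95 CPM. Yod1 overlaps 2.12% of the exon bases of Pfkfb2 on the opposite strand and had 49.5 ± 5.38 CPM. Dbnl, beside Pgam2, and Csnk1d, beside Slc16a3, had 104 ± 8.74 and 204 ± 8.23 CPM. The origin of these reads was not tested.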

How the results depend on the processing

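The count of 0 genes more variable than the trend did not change under any alternative run, while the count over all genes, 10, became 20 with library totals, 285 without a filter, 81 by DESeq2 dispersion outliers and 122 by negative binomial goodness of fit, and ran from 23 to 137 with 1 library left out. The 15 genes beyond counting noise became 13 to 17 under the planned settings with all 3 libraries and 7 to 13 with 1 left out; over all genes, 7188 became 3768 to 6579 with 1 left out. The median of thymus 3 minus thymus 2, -0.10, became -0.18 with library totals and -0.0067 with the GC trend removed, and that of thymus 3 minus thymus 1, -0.01, became -0.056 with library totals, where the medians of all genes also shifted to -0.09 and -0.04. In TPM, a scale chosen once the data had been seen, the medians for thymus 3 minus thymus 2, thymus 3 minus thymus 1 and thymus 2 minus thymus 1 were -0.25, -0.0996 and 0.104, beside -0.15, -0.09 and 0.05 over all genes. Of the alternative values of isoenzyme ratios, 57 stayed within the spread between libraries, 25 moved with their direction kept and 6 reversed. The log2 ratio of Slc2a1 over Slc2a3, 0.46, became -0.58 without length scaling and -0.30 with APPRIS principal transcripts. That of Ldhb over Ldha, 0.45, became -0.15 with the longest transcript, -0.63 without length scaling and -0.19 with APPRIS principal transcripts. That of Pgam1 over Pgam2, 2.07, became -0.76 in the unstranded column. Lengths are annotated, not measured, so levels between genes carry that limit, as do gene counts that pool isoforms.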
